A study of Mus musculus with 12 samples.

Results

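Macrophages that line the borders of the nervous system and macrophages that enter an injured cord carry receptors for the uptake of debris, modified lipoproteins and spent hemoglobin. Here 10 macrophage genes were examined in spinal cord tissue, namely the receptors MSR1, CD36, MRC1, CD163, LYVE1, STAB1 and CD84 and the secreted proteins CD5L, LYZ2 and PF4. They were chosen by the listed gene symbols and by their values in the genotype comparison of these same data, so what follows on that comparison is a description. Of the 10 genes, 7 were listed above the lesion, where 13647 gene rows are given, and 8 below it, where 12338 are given. The same 7 were listed at both sites.

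The tissue came from male targeted replacement mice carrying human ApoE4 that were injured by contusion at thoracic level 9 when 4 months old, and was taken 14 days later just rostral (above) or caudal (below) to the lesion. The 4 groups were synj1+/+ above, synj1+/- above, synj1+/+ below and synj1+/- below, with 3 bulk RNA-seq libraries in each of them, and all 4 share the ApoE4 variant and the contusion. The paper lists 3 mice per genotype for RNA-seq, so both sites were probably sampled in the same mice, which the labels do not show. A gene with the same direction at both sites is therefore not read as agreement between separate animals. A synj1+/- mouse has 1 inactive allele of synaptojanin 1, a lipid phosphatase. The comparison asks how tissue RNA differs after injury when this gene is reduced. Each group has a single value per gene, read here as FPKM plus 1 because the lowest value is exactly 1. FPKM is fragments scaled to the length of the transcript and the depth of the library. The sources do not state the reading as FPKM plus 1. The authors combined each value over the 3 libraries of its group, so no spread between libraries could be computed. No difference below could be set against such a spread. The deposited values therefore carry no error here, the deposited table gives no depth for single libraries, and a gene is called lower or higher only when its 2 values differ by at least 1.5-fold. The sites were scaled separately, so values above and below the lesion are set side by side as a description only.

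Scavenger receptors bind modified lipoproteins, dying cells and polyanions at the macrophage surface and carry them to the lysosome. Border-associated macrophages of the meninges and perivascular spaces are commonly marked by MRC1, CD163 and LYVE1, and macrophages that have taken up myelin or lipid commonly carry MSR1 and CD36. After a contusion such cells collect in and around the lesion, next to resident microglia.

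The label of border-associated cells could be checked against only 1 of these 3 defining markers. MRC1, the mannose receptor, was listed only below the lesion, at 2.88 in libraries labelled synj1+/+ and 2.35 in those labelled synj1+/-, which put it at percentile 2.74 of the levels there and lowest of the 8 members. CD163, the receptor for hemoglobin bound to haptoglobin, and LYVE1, a hyaluronan receptor, were listed at neither site. A gene without a row cannot be read as absent or low, since abundant genes such as MBP and GAPDH also have no row in the table used here. The genes that have rows are therefore called macrophage genes, of which LYZ2, PF4 and CD84 are not scavenger receptors and CD5L is a secreted protein.

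SYNJ1, the gene that the genotype lowers, had values in the order opposite to the labels, but not past the limit of 1.5-fold at either site. Rostral to the lesion it was listed at 1905 for libraries labelled synj1+/+ and 2404 for those labelled synj1+/-, a fold of 1.26. Caudal to the lesion it was listed at 1847 and 2593, a fold of 1.40. The higher value was thus found where 1 allele is said to be inactive. Every direction given here rests on the labels, and pairs of values are in the order synj1+/+ and then synj1+/-.

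The 4 members that were lower by at least 1.5-fold in libraries labelled synj1+/- at both sites were CD5L, LYZ2, PF4 and STAB1. The 250 bases before their RefSeq start sites (build GRCm38.p6, written 5′ to 3′ on the gene's strand) are shown because these genes were lower together. Capitals mark matches on either strand to GAGGAA, the core of the purine-rich box of the macrophage factor PU.1, or to AGGAAGT, a longer core of the same ETS family. The letters of the 2 cores can overlap.

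CD5L: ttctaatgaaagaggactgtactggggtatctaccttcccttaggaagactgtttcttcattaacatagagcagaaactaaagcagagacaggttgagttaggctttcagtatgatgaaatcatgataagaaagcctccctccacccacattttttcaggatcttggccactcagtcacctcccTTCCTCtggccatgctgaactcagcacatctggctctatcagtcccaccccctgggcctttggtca
LYZ2: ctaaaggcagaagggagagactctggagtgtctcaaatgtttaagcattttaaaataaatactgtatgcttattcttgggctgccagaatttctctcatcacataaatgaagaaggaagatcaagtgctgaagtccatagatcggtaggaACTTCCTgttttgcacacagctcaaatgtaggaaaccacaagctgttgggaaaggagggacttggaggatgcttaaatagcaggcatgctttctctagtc
PF4: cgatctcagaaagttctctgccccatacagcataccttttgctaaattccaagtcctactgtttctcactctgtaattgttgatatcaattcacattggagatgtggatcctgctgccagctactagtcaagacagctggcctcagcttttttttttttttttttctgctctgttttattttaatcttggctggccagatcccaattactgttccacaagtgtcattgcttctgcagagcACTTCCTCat
STAB1: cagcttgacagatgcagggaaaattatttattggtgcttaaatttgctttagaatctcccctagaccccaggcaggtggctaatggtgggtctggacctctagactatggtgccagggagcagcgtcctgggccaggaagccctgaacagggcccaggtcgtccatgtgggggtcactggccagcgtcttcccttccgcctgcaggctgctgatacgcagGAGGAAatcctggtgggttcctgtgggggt

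These windows lie at chr3:87357631-87357880, plus strand for CD5L, at chr10:117282273-117282522, minus strand for LYZ2, at chr5:90772185-90772434, plus strand for PF4 and at chr14:31168642-31168891, minus strand for STAB1. A start site window was found for 8 of the 10 members, and MSR1 and LYVE1 were not in the table of windows. GAGGAA occurred in 4 of the 8 windows, those of CD5L, MRC1, PF4 and STAB1, and in 23.3% of 32851 mouse windows of the same length. AGGAAGT occurred in 3 of the 8, those of MRC1, LYZ2 and PF4, against 7.69% of all windows. AGGTCA, a half-site of nuclear receptors, occurred in 2 of the 8, those of CD36 and CD84, against 14.0%. MRC1 was not lower past the limit, and CD84, which was lower past it below the lesion, held neither ETS core. The PF4 window held both ETS cores in 1 overlapping run, and the CD5L and STAB1 windows held GAGGAA alone. The start used for STAB1 lies inside the outer limit of the gene. The CD36 window is counted among the 8, but its start did not match a GENCODE transcript, and it is not shown. A match describes letters in these windows and not the binding of a factor.

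LYZ2 (lysozyme M, the bactericidal enzyme of macrophages and neutrophils) was by far the most abundant member. Its value above the lesion was 381 in libraries labelled synj1+/+ and 235 in those labelled synj1+/-, a level 1.62-fold lower. Below the lesion it was 1101 and 465, or 2.37-fold lower. The value for synj1+/- was the lower one at both sites, and the highest of the 4 values was that of libraries labelled synj1+/+ below the lesion. LYZ2 supplied 64.7% to 80.6% of the summed FPKM of the members in the 4 groups, so a sum over the members is mostly a statement on this gene. It stood at percentile 93.5 of the levels above the lesion and 98.8 below it in libraries labelled synj1+/+.

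LYZ2 has a close copy, LYZ1, on the same chromosome, and the pair are shown because reads of one could be counted for the other. The first 150 of the 447 coding bases follow, with the 14 positions that differ in capitals.

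LYZ2: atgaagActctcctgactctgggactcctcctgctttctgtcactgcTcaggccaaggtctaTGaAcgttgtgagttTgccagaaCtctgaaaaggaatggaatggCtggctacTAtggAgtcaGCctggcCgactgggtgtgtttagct
LYZ1: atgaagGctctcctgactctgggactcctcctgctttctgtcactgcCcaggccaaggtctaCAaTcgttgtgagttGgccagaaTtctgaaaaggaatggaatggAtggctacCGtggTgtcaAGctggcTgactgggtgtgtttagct

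LYZ2 lies on chromosome 10 from 117277541 to 117282272 and LYZ1 from 117287795 to 117292868 in RefSeq on GRCm38.p6. Over the whole coding sequence 425 of 447 positions were identical, or 95.1%. Of the 1217 windows of 100 bases in the LYZ2 transcript, 24 were found unchanged in the LYZ1 transcript. LYZ1 was listed at 2.23 and 1.37 above the lesion and at 3.40 and 1.96 below it, in libraries labelled synj1+/+ and synj1+/-. The FPKM of LYZ2 was 308 to 639 times that of LYZ1 in the 4 groups, so the split of reads touches LYZ1 far more than LYZ2, and the LYZ1 values are uncertain.

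CD5L had the largest fold of the members on the scale of the deposited values. It encodes a secreted scavenger protein of tissue macrophages that inhibits apoptosis, and lies on chromosome 3 from 87357881 to 87371074. The value was 7.96 in libraries labelled synj1+/+ and 4.24 in those labelled synj1+/- above the lesion, 1.88-fold lower in the latter. Below the lesion it was 27.2 and 8.88, 3.06-fold lower. The value of libraries labelled synj1+/- below the lesion was close to that of libraries labelled synj1+/+ above it.

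STAB1 (stabilin-1, a scavenger and clearance receptor of macrophages and of some endothelial cells, on chromosome 14 from 31139017 to 31168651) gave 12.8 and 8.27 above the lesion in libraries labelled synj1+/+ and synj1+/-, a 1.55-fold difference. Its values below were 21.2 and 9.01, or 2.35-fold lower in libraries labelled synj1+/-. The level of libraries labelled synj1+/- was nearly the same at the 2 sites, whereas that of libraries labelled synj1+/+ was higher below.

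MSR1 (class A scavenger receptor, which takes up modified lipoproteins, on chromosome 8 from 39543232 to 39642750) had its larger fold above the lesion. Its value was the lower one for synj1+/- at both sites, but only the fold above passed the limit. Above, the value was 10.1 in libraries labelled synj1+/+ and 5.66 in those labelled synj1+/-, 1.78-fold lower. Below, it was 14.3 and 10.0, a fold of 1.43 that is just outside the limit of 1.5.

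CD84, a homophilic receptor of the SLAM family on leukocytes (chromosome 1 from 171839697 to 171890718), was listed at 66.2 and 47.7 above the lesion, a fold of 1.39 that also stayed outside the limit. Below the lesion its values were 105 and 57.2, or 1.84-fold lower in libraries labelled synj1+/-. PF4, a chemokine of platelet granules that border-associated macrophages also make (chromosome 5 from 90772435 to 90773383), was near the lower end of the scale. It gave 2.70 and 1.63 above and 4.97 and 2.86 below, folds of 1.66 and 1.74. The 1 that is taken to be part of each value weighs on PF4. On that reading its FPKM alone was 1.70 and 0.631 above the lesion, a log2 change of -1.43 in place of -0.73. Below the lesion it was -1.09 in place of -0.80, so without the 1 the larger fold of PF4 was above the lesion, as for MSR1.

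CD36 was the member that parted from the rest. It encodes a class B scavenger receptor that takes up long-chain fatty acids and oxidized lipoproteins, is made by macrophages, platelets and capillary endothelium, and lies on chromosome 5 from 17781690 to 17888959. Above the lesion its value was 48.0 in libraries labelled synj1+/+ and 66.3 in those labelled synj1+/-, 1.38-fold higher and not past the limit. Below the lesion it was 96.4 and 36.7, 2.62-fold lower. The highest and the lowest of the 4 CD36 values were thus both found below the lesion, in libraries labelled synj1+/+ and in those labelled synj1+/-.

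**Figure D1:**
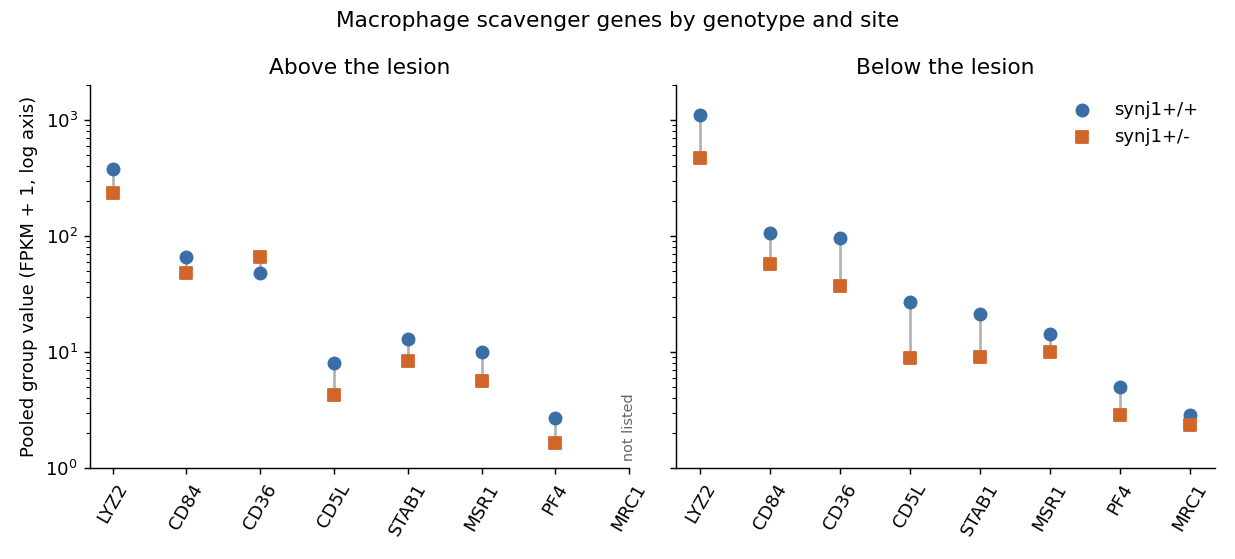
Pooled value of each member (FPKM plus 1, log axis) above and below the lesion; circles are the libraries labelled synj1+/+, squares the libraries labelled synj1+/-, each 1 value over 3 libraries without an error. The square lies under the circle for each gene drawn apart from CD36 above the lesion, and LYZ2 spans the highest values, from 235 to 1101.

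Above the lesion, 5 of the 7 listed members were lower by at least 1.5-fold in libraries labelled synj1+/- and 0 were higher, where 1.94% of all gene rows were lower and 0.791% higher by that much. Below the lesion, 6 of 8 were lower and 0 higher, where 4.38% of all rows were lower and 1.16% higher. Nothing is read from these counts, since the same comparison was used to choose the genes. STAB1, with a log2 change of -0.63, was the member just past the limit above the lesion and CD84, with -0.47, the next outside it. Below the lesion these were PF4, with -0.80, and MSR1, with -0.52. The median log2 change of the listed members was -0.70 above and -1.06 below, and that of all rows was -0.0039 and 0.014. The count above the lesion was 0 at a limit of 2-fold, 1 with a pseudocount of 10, and 0 when each change was taken relative to the median of general macrophage genes, described further on.

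The difference between the sites was not uniform over the members. The log2 change below was lower than that above by 1.86 for CD36, by 0.71 for CD5L, by 0.60 for STAB1, by 0.55 for LYZ2 and by 0.41 for CD84. For PF4 the 2 changes lay within 0.07 of each other, and for MSR1 the change below was the higher one by 0.31. These differences were not tested. Of the 12023 genes with 1 row at each site, 21 (0.175%) had a difference at or under that of CD36. CD36 was picked for its large difference, among members chosen on these same values, so this share is a description and not a probability.

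**Figure D2:**
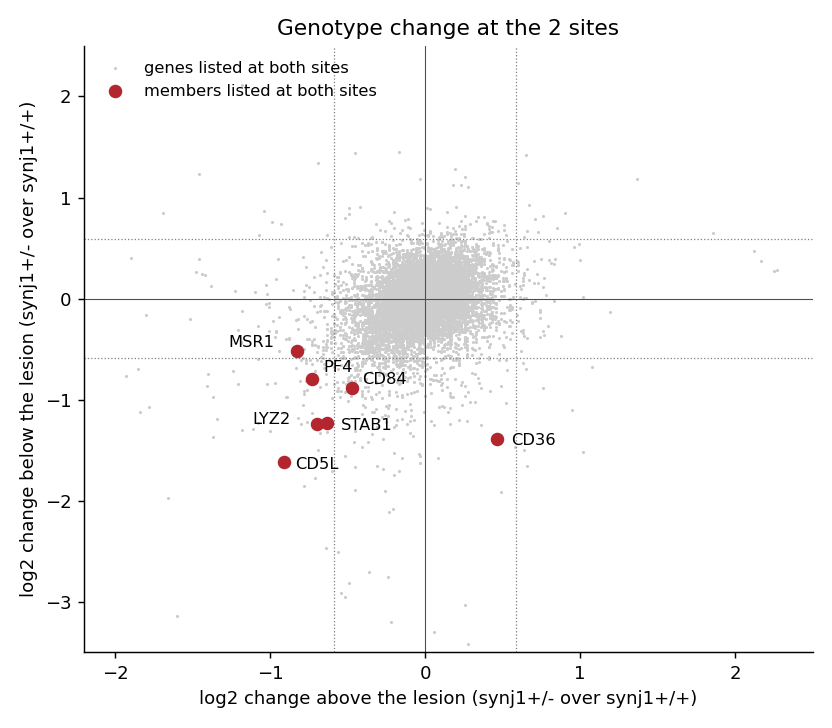
Log2 change between the genotypes above the lesion (x axis) against that below it (y axis) for genes with 1 row at each site; red points are the 7 members listed at both, dotted lines mark 1.5-fold, and 6 genes lie outside the axes. The red points lie to the lower left, apart from CD36 at 0.46 above and -1.39 below.

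Within 1 genotype, the level below the lesion was set against the level above it. These ratios use the same values by which the genes were chosen and cross 2 separate normalizations, so they too are a description. In the libraries labelled synj1+/+, all 7 members were higher below the lesion, 6 of them by at least 1.5-fold, where 3.24% of 12023 genes were higher and 1.36% lower by that much. The median log2 ratio was 0.88 for the members and -0.00083 for all genes. CD5L was 3.41-fold higher below, LYZ2 2.89-fold and CD36 2.01-fold, and MSR1 was the lowest at 1.42-fold.

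In the libraries labelled synj1+/-, 4 of the 7 were higher below by at least 1.5-fold and 1 was lower, where 1.43% of genes were higher and 0.832% lower by that much. CD5L was 2.09-fold, LYZ2 1.98-fold, MSR1 1.77-fold and PF4 1.75-fold higher below. CD84 and STAB1, at 1.20-fold and 1.09-fold, were close to level between the sites. CD36 was 1.80-fold higher above the lesion in this genotype, the reverse of its order in libraries labelled synj1+/+. The median log2 ratio over the 7 members was 0.81.

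**Figure D3:**
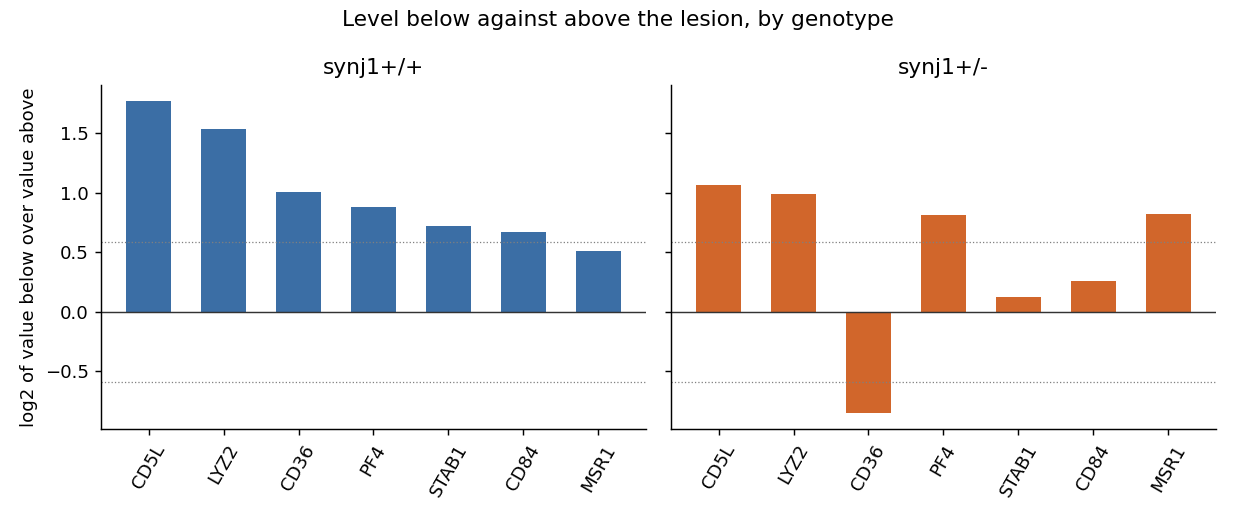
Log2 ratio of the value below to the value above the lesion for the 7 members listed at both sites, in libraries labelled synj1+/+ (left) and synj1+/- (right); bars start at 0, dotted lines mark 1.5-fold, and no error can be drawn. Every bar points up on the left, from 0.51 to 1.77, and CD36 alone points down on the right, to -0.85.

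Some general macrophage genes were also lower in libraries labelled synj1+/-. Of 18 pan-macrophage genes, all 18 were listed above the lesion and 17 below, of which 6 and 11 were lower by at least 1.5-fold and 0 higher. Their median log2 change was -0.39 above and -0.64 below. ADGRE1, the F4/80 antigen, was listed at 31.9 and 16.1 above the lesion and at 36.2 and 31.1 below. AIF1, the microglial protein Iba1, was listed at 18.2 and 18.7 above and at 27.0 and 14.2 below. In bulk tissue, fewer cells of a type and less RNA per cell cannot be told apart.

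Beside that list the members differed among themselves. Under its median lay 6 of 7 members above the lesion and 6 of 8 below. Above the lesion, 0 of 7 members had a lower log2 change than every pan-macrophage gene, ADGRE1 being the lowest of them at -0.98, and CD36 was higher than the highest of them, AIF1 at 0.04. Below the lesion, 4 of 8 members, CD5L, CD36, LYZ2 and STAB1, were lower than the lowest pan-macrophage gene, AIF1 at -0.93. Against the median of the pan-macrophage list, the log2 change below was -0.97 for CD5L, -0.75 for CD36, -0.60 for LYZ2 and -0.59 for STAB1, while MSR1 and MRC1 were above that median by 0.13 and 0.35. MSR1 and PF4 lay farther under the median above the lesion, at -0.44 and -0.34, and PF4 was at -0.15 below. These members were chosen on the same values, and the position of the list was not tested.

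The homeostatic microglia markers had list medians of -0.26 above and -0.45 below. Of 12 markers, 11 were listed above and 7 below the lesion, and only FCRLS was lower by at least 1.5-fold at either site, at 109 and 67.0 above and at 137 and 82.9 below. P2RY12, the microglial purine receptor, had a row only above, at 98.6 and 93.9.

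Other scavenger receptors and other markers of border-associated cells were also examined. Of 19 other scavenger receptors, 0 of 13 listed above the lesion and 6 of 12 listed below were lower by at least 1.5-fold, and 0 were higher, with list medians of -0.17 and -0.56. Below the lesion SCARA3 was listed at 22.5 and 6.90, SCARF2 at 17.4 and 8.37, COLEC12 at 20.7 and 10.6, and CXCL16, which binds oxidized lipoprotein, at 59.6 and 31.6. Which cells of the bulk tissue gave these values, macrophages or others, was not tested. MARCO, OLR1, STAB2 and TIMD4 were listed at neither site.

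Of 20 other border-associated macrophage markers, 11 were listed at each site, of which 3 above and 7 below were lower by at least 1.5-fold, and 0 were higher. Above the lesion MS4A7 was listed at 12.4 and 4.92 and SIGLEC1, a sialic acid receptor, at 11.9 and 5.85, while SIGLEC1 below differed by 1.03-fold only. Below the lesion MS4A7 was listed at 29.0 and 12.7, CLEC4N at 8.62 and 3.03, and the chemokine CCL8 at 8.19 and 2.27. FOLR2, a folate receptor, was like CD36 the higher for synj1+/- above the lesion, at 9.77 and 13.1, not past 1.5-fold, and had no row below. F13A1, CBR2, CLEC10A, CD209F, CD209B and CCL24 were listed at neither site.

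Genes of lipid-laden macrophages were examined because CD36 acts in lipid uptake. Of 19 such genes, 17 were listed at each site, and 1 above and 9 below were lower by at least 1.5-fold, with 0 higher. Below the lesion FABP4, a fatty acid binding protein, was listed at 6.72 and 2.14, LGALS3 (galectin-3) at 187 and 98.3, and LPL (lipoprotein lipase) at 41.3 and 24.2. Above the lesion TREM2, a lipid receptor of microglia, was the 1 gene past the limit, at 315 and 209.

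Markers of other cells that carry some of these genes are given because they could contribute to the members' values. Of 12 blood endothelial markers, which bear on CD36 and STAB1, 1 was lower by at least 1.5-fold at each site, MFSD2A above and CDH5 below. None was higher by that much. Without regard to the limit, 8 of the 12 had the higher value for synj1+/- above the lesion and 3 below it. Over all gene rows these were 6685 of 13647 above and 6512 of 12338 below. The list medians were 0.07 above and -0.14 below. Their summed FPKM was 417 and 392 above and 498 and 453 below. The platelet markers, which bear on PF4 and CD36, gave summed FPKM of 12.0 and 12.1 above and 16.6 and 14.6 below over 3 of 8 listed genes, with 0 past the limit and PPBP, GP9 and GP1BA listed at neither site. Of 11 neutrophil markers, which bear on LYZ2, 3 were listed above and 4 below, with 0 and 1 past the limit, and MPO, ELANE, LTF and LY6G were listed at neither site. S100A8 was listed at 6.41 and 3.04 below the lesion. Of 12 monocyte markers, 7 and 6 were listed and 1 was lower past the limit at each site, THBS1 above and LY6C2 below, and CCR2 was listed at neither. LY6C2 was listed at 24.2 and 26.7 above the lesion, not past the limit, and at 33.9 and 18.4 below. The monocyte list medians were -0.20 above and -0.30 below, and the neutrophil list medians 0.05 and -0.45.

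The list medians farthest from 0 were that of the fibroblast genes below the lesion, at -2.76, and that of the erythroid genes above it, at 2.15. The fibroblast median above was -0.32 and the erythroid median below 0.32. Of 10 fibroblast and collagen genes, 1 above and 8 below were lower by at least 1.5-fold, and their summed FPKM was 122 and 106 above and 578 and 140 below in libraries labelled synj1+/+ and synj1+/-. COL1A1 was listed at 47.2 and 6.29 below the lesion. Of 10 erythroid genes, a list added after the data were seen, 6 were listed at each site, and 5 above and 1 below were higher by at least 1.5-fold, with summed FPKM of 598 and 1496 above and 978 and 1145 below. The part of fibroblasts, blood or any other cell type in the values of the members was not tested. The tissue carried neuron markers at high level, with SNAP25 at 5239 and 6248 above and 5272 and 6929 below. List medians of the neuron genes were 0.05 above and 0.35 below, and those of the astrocyte genes -0.26 and -0.18. The oligodendrocyte medians were -0.05 and 0.14, over the 3 of 7 genes listed at each site. The lymphatic endothelial medians were -0.07 and 0.04, over PROX1, PDPN and RELN, the only 3 of 6 genes listed. The housekeeping medians were 0.09 and -0.02.

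**Figure D4:**
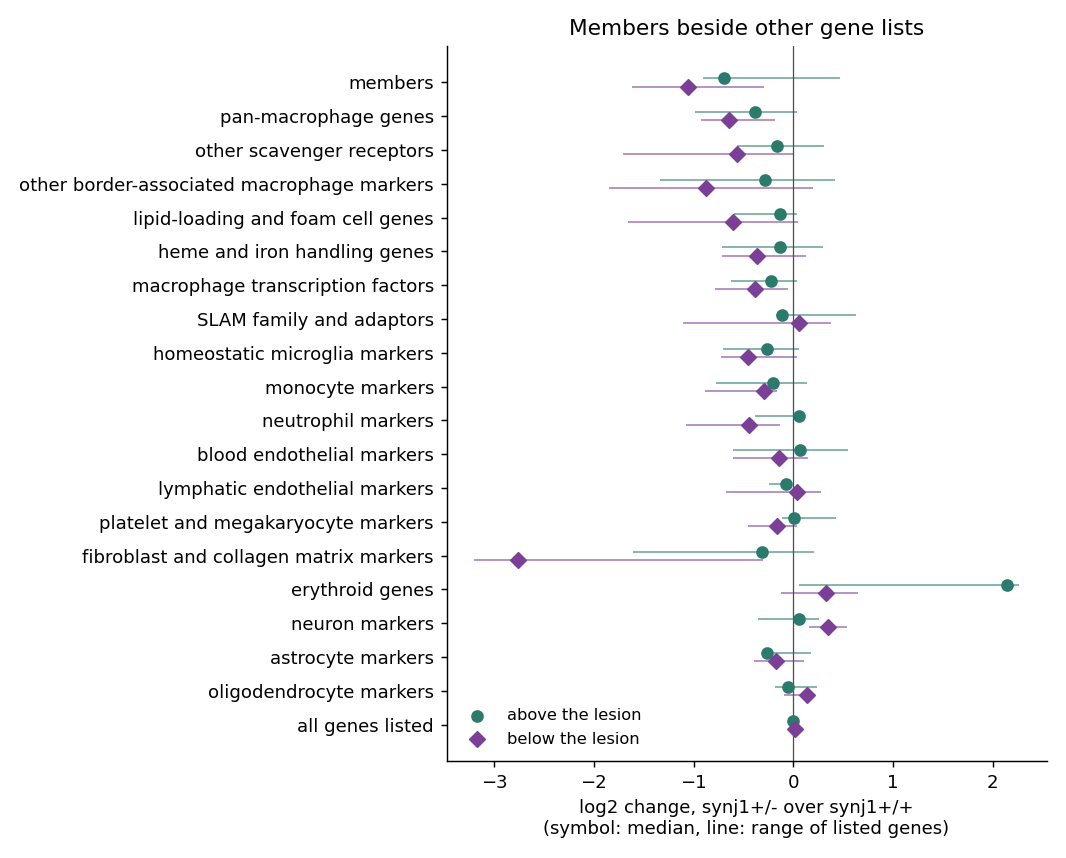
Log2 change between the genotypes for the members and 18 other gene lists, above (circles) and below (diamonds) the lesion; each symbol is the median over the listed genes, each line their lowest to highest value, and the last row is the median over all rows. The median of the members is -0.70 above and -1.06 below, the fibroblast list reaches -2.76 below and the erythroid list 2.15 above.

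The genes closest to the members were found by the distance between the pair of log2 changes of a gene (above, below) and the pair of member medians, over 11933 other genes with FPKM of at least 1 in all 4 groups. The 5 closest were LSP1, IL1R1, MMP23, MXRA8 and ADAMTSL3, at distances of 0.08 to 0.17 on the log2 scale. LSP1, an actin-binding protein of leukocytes, gave 76.7 and 46.3 above and 149 and 68.0 below. IL1R1, the receptor of interleukin-1, gave 34.4 and 19.9 above and 58.1 and 28.2 below. MMP23 gave 13.6 and 7.96 above and 20.5 and 10.7 below. The values of MXRA8 were 34.7 and 23.8 above and 62.8 and 32.0 below. Those of ADAMTSL3 were 10.4 and 6.14 above and 6.92 and 3.72 below. A distance over 2 changes rests on 4 pooled values and says nothing of shared control.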

How the data were processed

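Bulk RNA-seq of 12 spinal cord libraries, 3 in each of 4 groups, was analysed from the table deposited by the authors. By the study's methods, the authors reduced the reads of each site at random to the number of its smallest library, aligned them, and summarized them with cufflinks and upper quartile normalization; the submitters' processing notes name STAR 2.5.4b, Cuffdiff 1.3.0 and GRCm38.p6, and the gene annotation is not given in the sources used here. The deposited values were taken as FPKM plus 1, since the lowest of 51970 values is exactly 1, and each combines the libraries of a group. The authors' columns of fold change, log2 fold change, p-value, q-value and significance, and a second file of p-values and log2 fold changes, hold their own comparison and were not used.

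Log2 changes were computed from the deposited values, synj1+/- over synj1+/+, within each site. With 1 value per group no test, interval or library left out was possible. Genes were called at 1.5-fold, and 3 symbols with more than 1 row at a site were left out of single-gene values. The members and gene lists were chosen with earlier results of these data known. Named genes were the members, SYNJ1, LYZ1, at most 4 genes per list and site of largest change past 1.5-fold, and the 5 genes closest to the member medians; other genes of the lists were named after their values were seen. Alternatives were other fold limits, pseudocounts, a filter of FPKM at least 1, and centring on all genes, the housekeeping list or the pan-macrophage list. Settings chosen after seeing the data were the members listed at both sites, the members without CD36 or without those under 10 in both groups, and other limits and a centring for the site ratios. The erythroid list was also added then. The steps were tested on simulated data. Sequences came from RefSeq (GRCm38.p6) and GENCODE M21 transcripts (GRCm38). Python 3.11.15, numpy 2.4.6, pandas 2.3.3 and matplotlib 3.10.9 were used.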

Additional observations from a re-analysis of the deposited data

Results flagged for a closer look

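CD36 was singled out because its values went in opposite directions at the 2 sites, higher for synj1+/- rostral to the lesion (48.0 and 66.3 in the order synj1+/+, synj1+/-) and lower below the lesion (96.4 and 36.7). The log2 change below minus that above was -1.86. Each group has 1 pooled value, so whether the single libraries went the same way is not known, and the difference was not tested.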

How the results depend on the processing

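No library could be left out and no paired analysis was possible because each group has 1 value pooled over its libraries. The labels also share no replicate number between groups, so libraries above and below from the same mouse could not be matched. A pseudocount adds the same number to both values and the filter at FPKM of at least 1 only leaves members out. Neither could therefore change the direction of a member. The directions held under centring on all genes, whose medians were -0.0039 above and 0.014 below, and on the housekeeping list. Above the lesion, the 5 members lower past 1.5-fold became 0 at a limit of 2-fold, 1 with a pseudocount of 10 and 0 after centring on the pan-macrophage list, and the member median of -0.70 became -0.36 with a pseudocount of 10 and -0.31 after that centring. Below the lesion, the median of -1.06 became -0.42 after centring on the pan-macrophage list. The 6 members higher below than above in libraries labelled synj1+/+ became 3 at 2-fold and the 4 in libraries labelled synj1+/- became 1, settings chosen after seeing the data. Of 89 values of single members under these alternatives, 74 kept their direction and their side of the limit. Of these, 14 came from the filter, under which a value cannot change. A further 12 were no longer past 1.5-fold, and 1 (CD36 above the lesion, to 0.85 after centring on the pan-macrophage list) moved past it. The other 2 (MSR1 and MRC1 below the lesion under that centring) changed sign and were not past 1.5-fold in either setting. The pseudocount of 10 acts on low genes by construction. The reads of each site were reduced to 1 common number, but the deposited values hold no counts per gene, so no counting error could be computed for low genes such as PF4 and MRC1.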

Other observations

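Genes that handle the heme and iron taken up by scavenging macrophages were examined as well. Of 14 such genes, 11 were listed above and 12 below the lesion, and 1 and 4 were lower by at least 1.5-fold in libraries labelled synj1+/-, with 0 higher. HMOX1, which breaks down heme, was listed at 22.1 and 13.5 above the lesion. Below the lesion SLC11A1, an iron transporter of phagosomes, was listed at 57.3 and 35.0, SLC40A1, the iron exporter ferroportin, at 23.7 and 15.5, and FTL1, a ferritin subunit, at 1083 and 683. Of 14 macrophage transcription factors, 12 were listed at each site, and 2 above (RUNX1 and CEBPA) and 1 below (CEBPB, at 77.8 and 45.1) were lower past the limit. SPI1, which encodes PU.1, gave 66.4 and 57.0 above and 87.6 and 65.5 below. Of 11 genes of the SLAM family of CD84 and its adaptors, 5 were listed at each site. Below the lesion 2 were lower past the limit, CD48 at 78.8 and 36.6 and SLAMF9 at 15.9 and 9.15, and the other 3 had the higher value for synj1+/- without passing it, SLAMF7 at 9.83 and 12.8, SLAMF8 at 7.40 and 7.71 and SH2D1A, an adaptor, at 16.3 and 18.8. The list median there was 0.06. Above the lesion SH2D1A alone was past the limit and higher, at 14.2 and 21.9, with a list median of -0.11.

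Opposite directions as in CD36 were also counted over all genes. Of 12023 genes with 1 row at each site, 2118 (17.6%) had the higher value for synj1+/- above the lesion and the lower one below. Of these, 25 (0.208% of the 12023), CD36 among them, were higher by at least 0.32 on the log2 scale in libraries labelled synj1+/- rostral to the lesion and at least 1.5-fold lower below it, limits set after the values of CD36 were seen. They include MMP12, the macrophage elastase, at 22.7 and 46.0 above and 64.0 and 22.3 below, ATP6V0D2, a subunit of the proton pump, at 4.79 and 6.85 above and 14.1 and 6.90 below, and ANXA1 (annexin A1) at 1.52 and 2.27 above and 5.04 and 1.82 below. These 3 genes were picked from the 25 after their values were seen.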
